A study of Mus musculus with 2 samples.

Results

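Schwann cells wrap or accompany every peripheral nerve fibre, and the hair follicle is one of the most densely innervated structures of the skin. Sensory fibres end around the upper follicle, near the bulge, as lanceolate endings that are flanked by terminal Schwann cells. Members of this lineage derive from the neural crest, as melanocytes do, and share with melanocytes the transcription factor Sox10. The 8 genes described here are Sox10 and the adhesion protein Cdh19, the receptor and calcium-binding markers Ngfr and S100b, the adhesion molecule Ncam1, and the myelin proteins Pmp22, Mbp and Mal. They were taken by name, as all 27 probe sets that the platform annotation assigned to these symbols, out of 45101 probe sets in all. By gene they were 8 of 18194.

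The study compared the bulge, the stem-cell region of the follicle's outer root sheath, with the hairshaft. Both were cut by laser from frozen, eosin-stained skin of C57Bl6 mice aged 21 days, and 30 ng of total RNA was amplified for each hybridization. There was 1 array for each structure, and nothing in the sources used here gives the number of animals behind each, so the spread between replicates is unknown and no test was run. Values are log2 GCRMA values, differences are bulge minus hairshaft, and a fold printed as "at least" takes a background floor of 2.68 in place of a dimmer hairshaft value; all folds describe these 2 arrays only. A feature is called bulge-high or hairshaft-high where the difference reached 2-fold (1 on the log2 scale), and even where it was smaller.

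The labelled structures were checked against their markers. Of 8 bulge stem cell markers, 7 were bulge-high. Hair shaft keratins did not mark the hairshaft array: 4 of 8 were bulge-high and none was hairshaft-high. Krt31, Krt33a and Krt86 had 6.11, 7.07 and 5.43 on the bulge array, and were at or below the floor in the array labelled hairshaft. Genes of skeletal muscle (11 of 11 above the floor), fat cells (8 of 8) and endothelium (8 of 8) were all bulge-high. Some of these genes, among them Ttn, Adipoq and Pecam1, passed the floor through their bulge value alone. Skeletal muscle and fat carry nerves of their own, and the part of such nerves in the values of the 8 genes was not tested. Over all genes above the floor, 11.4% were bulge-high and 4.91% hairshaft-high. In bulk RNA fewer cells of a type and less RNA per cell cannot be told apart.

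Of the 8 nerve-lineage genes, some were higher in the bulge, some were close on both arrays, and Mbp differed in direction between its probe sets. With each gene represented by the probe set of highest mean value, 4 of the 8 genes (Cdh19, Mal, Pmp22 and Sox10) were bulge-high, none was hairshaft-high, and 4 (Ncam1, S100b, Ngfr and Mbp) were even. All 8 passed the floor, Mal through its bulge value alone. Among all 13329 genes above the floor, 11.4% were bulge-high and 4.91% hairshaft-high. The median difference of the 8 genes was 1.03 on the log2 scale, against 0.00 over all genes above the floor, and with a stricter floor it was 0.37. The share of bulge-high genes differed with their level. It was 26.1% of the 2301 genes with a mean between 4 and 6, where Sox10, Cdh19 and Ncam1 lay, and 5.07% of the 1243 genes with a mean between 10 and 12, where Pmp22 lay.

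**Figure D1:**
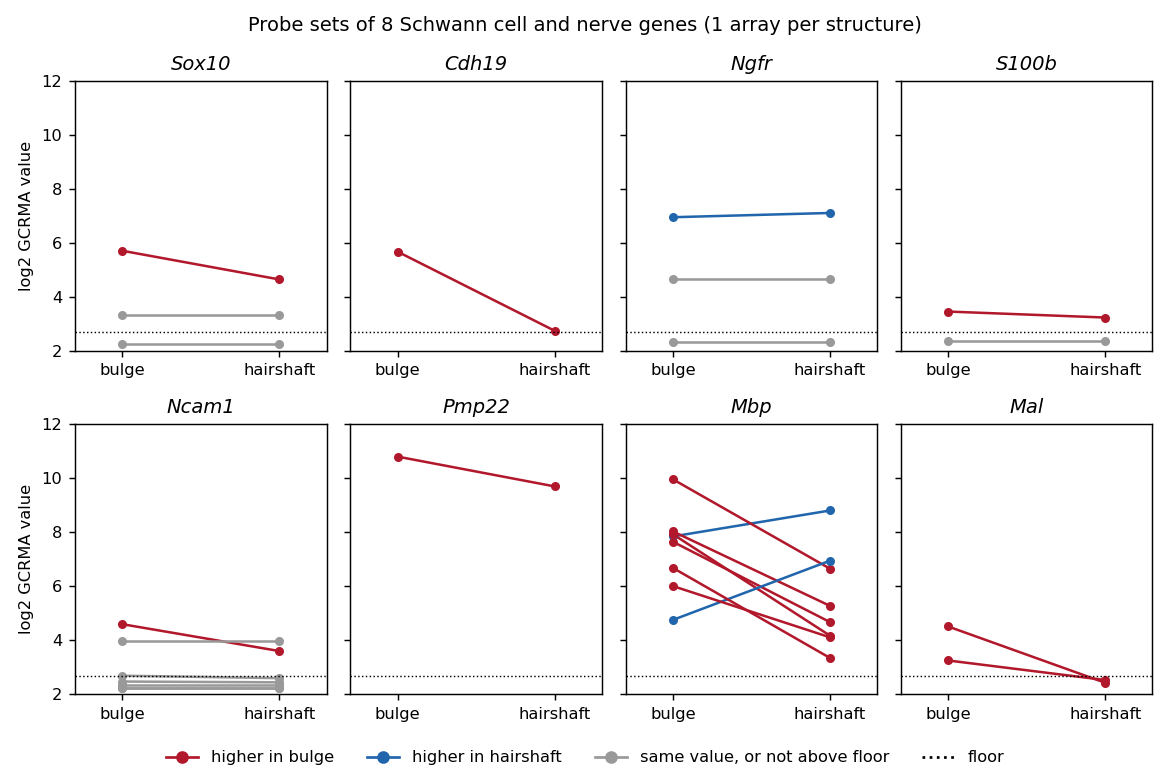
Log2 GCRMA value (vertical axis) of every probe set of the 8 genes in the bulge and the hairshaft, 1 line per probe set and 1 array per structure. Lines are red where the bulge was higher, blue where the hairshaft was higher and grey where both values were the same or neither was above the floor (dotted). The 8 Mbp lines run in both directions, with 6 higher in the bulge and 2 in the hairshaft.

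Over probe sets, 10 of 27 were bulge-high, 1 was hairshaft-high, 8 were even and 8 were above the floor on neither array. Of all 28721 probe sets above the floor, 9.52% were bulge-high and 7.37% hairshaft-high. Of the 10 bulge-high probe sets, 6 belong to Mbp. Of the 27 probe sets, 9 carried exactly the same value on both arrays, and 3 of these lay above the floor and so count among the 8 even ones. Such identical pairs made up 38.3% of all probe sets, among them 74 of the 80 receptor probe sets that set the floor, and 11.5% of the probe sets above it. An identical pair is therefore not read here as a measurement of equal expression. Any such pair above the floor is still counted as even, and enters the medians, in all lists below.

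Sox10, the transcription factor that neural crest cells need to become glia or melanocytes, gave a bulge-high value with 1 of its 3 probe sets. Probe set 1451689_a_at had 5.71 in bulge RNA and 4.64 in hairshaft RNA, a 2.09-fold difference just past the 2-fold limit. Probe set 1424985_a_at had 3.33 on both arrays and 1425369_a_at had 2.23 on both, the lowest value of the scale. With the mean of its probe sets the log2 difference of Sox10 was 0.35, with an offset of 16 it was 0.74 and with quantile normalization 0.90, each under the limit.

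Cdh19, a cadherin of Schwann cell precursors and mature nerve glia, had the largest difference of the 8 genes by this choice of probe sets. Its only probe set had 5.67 in bulge RNA and 2.74 in hairshaft RNA, just above the floor, which is a 7.65-fold difference. The size depended on the treatment of dim values: the log2 difference of 2.94 was 1.46 with the stricter floor and 1.56 with the offset of 16. It was above the 2-fold limit with all 7 alternatives.

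Ngfr, the low-affinity neurotrophin receptor p75 of immature and terminal Schwann cells, which keratinocytes of the outer root sheath also express, did not share this direction. Probe set 1454903_at had 6.95 in bulge RNA and 7.11 in hairshaft RNA, a log2 difference of -0.16. The other probe sets, 1450177_at and 1421241_at, had 4.67 and 2.33 on both arrays. Ngfr was even with all 7 alternatives, at log2 differences of -0.05 to -0.23.

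S100b, the calcium-binding protein used as a general marker of Schwann cells and also found in fat cells, was close to background on both arrays. Probe set 1434342_at had 3.45 in bulge RNA and 3.23 in hairshaft RNA, and 1419383_at had 2.35 on both. The log2 difference of 0.22 for 1434342_at was under the limit, and with 1 array per structure so small a difference cannot be judged. Of the 2506 genes with a mean between 2 and 4, where S100b lay, 7.86% were bulge-high and 2.39% hairshaft-high. Fat cell genes were higher in the bulge (list median 6.73, log2), and their part in the S100b value was not tested.

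Ncam1, the neural cell adhesion molecule of non-myelinating Schwann cells, axons and developing muscle, has 7 probe sets, of which 2 were above the floor. Probe set 1426864_a_at had 4.59 in bulge RNA and 3.59 in hairshaft RNA, which at 1.996-fold falls just inside the 2-fold limit. Probe set 1450437_a_at had 3.98 on both arrays, and the other 5 ran from 2.23 to 2.68 in the bulge and from 2.23 to 2.58 in the hairshaft. The mean of the 7 probe sets gave a log2 difference of 0.16. Acta1, the skeletal muscle actin, was 15.15 in bulge RNA and 3.11 in hairshaft RNA, and the part of muscle RNA in the Ncam1 value was not tested.

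Pmp22, a membrane protein of compact myelin whose gene dosage underlies the inherited neuropathy Charcot-Marie-Tooth disease type 1A in humans, is made well outside nerves too, in fibroblasts and epithelia among others. Its single probe set, 1417133_at, had 10.80 in bulge RNA and 9.69 in hairshaft RNA, a 2.15-fold difference. It was bulge-high with all 7 alternatives, at log2 differences of 1.09 to 1.19. Of 7 fibroblast genes, 4, all collagen chains, were hairshaft-high (4.91% of all genes above the floor) and none was bulge-high (11.4%). The other 3, Dcn, Lum and Pdgfra, were even, at log2 differences of -0.09, -0.77 and 0.66. Col1a1, the main collagen chain of skin, had 11.87 in bulge RNA and 14.36 in hairshaft RNA, and the part of fibroblasts and epithelia in the Pmp22 value was not tested.

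The gene has several start sites, which in mammals include an upstream promoter used by myelinating Schwann cells and downstream promoters used more widely. A single probe set cannot tell their transcripts apart. The reference table held 4 start windows for Pmp22, and the outermost are shown because they differ most in base composition. Each is 300 bases from RefSeq, GRCm38.p6, plus strand, from 250 bases before to 50 after the start, with CpG dinucleotides in capitals. The upstream window lies at chr11:63128732-63129031 and the downstream one at chr11:63132553-63132852.
Pmp22 upstream start: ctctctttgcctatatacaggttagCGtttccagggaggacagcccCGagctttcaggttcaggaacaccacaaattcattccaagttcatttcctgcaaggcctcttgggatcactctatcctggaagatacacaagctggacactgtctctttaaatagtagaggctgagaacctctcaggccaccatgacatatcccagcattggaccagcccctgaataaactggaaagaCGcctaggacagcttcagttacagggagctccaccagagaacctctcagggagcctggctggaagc
Pmp22 downstream start: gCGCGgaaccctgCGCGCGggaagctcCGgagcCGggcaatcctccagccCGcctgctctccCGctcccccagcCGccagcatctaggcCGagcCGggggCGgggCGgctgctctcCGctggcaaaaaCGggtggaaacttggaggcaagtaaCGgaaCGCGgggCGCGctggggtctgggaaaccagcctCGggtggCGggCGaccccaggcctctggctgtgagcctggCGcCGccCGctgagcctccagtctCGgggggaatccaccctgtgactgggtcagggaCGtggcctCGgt
The upstream window held 3 CpG and 50.7% G and C bases, and the downstream window 30 CpG and 72.3%. The median over 32851 promoter windows of this length was 7 CpG. Start windows were searched for 4 of the 8 genes (Pmp22, Mal, S100b and Ngfr). Mbp was left out of the search, so whether the reference held a window for it is not shown. The words ACAAAG and ACAATG, forms of the core bound by SOX proteins, were searched on both strands. They occurred in 0 of these 7 windows and in 28.6% of all windows, which says only that these letters are not in these stretches. Of the 7 windows, 4 are from Pmp22, and the downstream one printed above overlaps another of them, so the 7 are not separate stretches.

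Mbp, the myelin basic protein that compacts the myelin sheath, was the 1 gene of the 8 with both bulge-high and hairshaft-high probe sets. Its 8 probe sets were all above the floor on both arrays, and 6 were bulge-high, by 3.73-fold to 13.6-fold. Probe set 1419646_a_at had 7.92 in bulge RNA and 4.16 in hairshaft RNA. Probe set 1433532_a_at had 9.96 in bulge RNA and 6.64 in hairshaft RNA. Probe set 1451961_a_at had 6.67 in bulge RNA and 3.33 in hairshaft RNA. These 3 had the largest differences, at log2 values of 3.76, 3.31 and 3.34. The other bulge-high probe sets all end in _x_at, the suffix for sets with probes that can match other transcripts. Probe set 1436201_x_at had 7.64 in bulge RNA and 4.66 in hairshaft RNA, 1456228_x_at had 8.03 in bulge RNA and 5.26 in hairshaft RNA, and 1454651_x_at had 6.0 in bulge RNA and 4.10 in hairshaft RNA.

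Every Mbp probe set carries a suffix, and the remaining pair, which have consecutive numbers and end in _a_at and _s_at, ran the opposite way. Probe set 1425263_a_at had 4.74 in bulge RNA and 6.94 in hairshaft RNA, a log2 difference of -2.20. Probe set 1425264_s_at had 7.84 in bulge RNA and 8.80 in hairshaft RNA, a difference of -0.96. The second of these had the highest mean value, 8.32 against 8.30 for 1433532_a_at, so the rule of 1 probe set per gene put Mbp with the even genes. With quantile normalization or the offset of 16 the choice passed to 1433532_a_at and the log2 difference of Mbp became 3.25 or 3.12, and with the mean of all 8 probe sets it was 1.86. Mbp was 1 of 31 genes with both a bulge-high and a hairshaft-high probe set, out of 6256 genes with at least 2 probe sets above the floor (0.496%). Genes with more probe sets have more occasions for this, and among the 190 genes with 6 or more it held for 7 (3.68%). The span of the Mbp differences was the second widest of the 31.

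The Mbp locus also makes longer golli transcripts from an upstream start, known in mice from immune cells as well as from the nervous system. The annotation used here does not say which transcripts each probe set reads. Among 8 immune genes, 2 were hairshaft-high (4.91% of all genes above the floor), none was bulge-high (11.4%) and 6 were even. Among the even ones, Cd74 had 12.81 in bulge RNA and 13.00 in hairshaft RNA, and Lyz2 had 10.74 in bulge RNA and 10.01 in hairshaft RNA. Itgam, also counted as even, was an identical pair at 2.84. The class II gene H2-Eb1 had 6.09 in bulge RNA and 11.47 in hairshaft RNA, and the T cell gene Cd3e had 5.77 in bulge RNA and 7.25 in hairshaft RNA. The summed linear level of the 8 was 11195 in bulge RNA and 16159 in hairshaft RNA, and their part in the Mbp values was not tested.

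Mal, a small membrane protein of myelin lipid rafts that epithelia also use for apical transport, was higher in the bulge. Probe set 1417275_at had 4.50 in bulge RNA and 2.41 in hairshaft RNA, below the floor, so it was at least 3.54-fold higher in the bulge. Probe set 1432558_a_at had 3.24 in bulge RNA and 2.51 in hairshaft RNA, at least 1.48-fold higher. With the stricter floor the log2 difference of Mal was 0.29 in place of 1.82, and with the offset of 16 it was 0.79. Its start window is shown because Mal and Pmp22 were the bulge-high genes with a window in the search. The window lies at chr2:127656646-127656945 on the minus strand of GRCm38.p6 (RefSeq) and held 8 CpG, in capitals.
Mal start: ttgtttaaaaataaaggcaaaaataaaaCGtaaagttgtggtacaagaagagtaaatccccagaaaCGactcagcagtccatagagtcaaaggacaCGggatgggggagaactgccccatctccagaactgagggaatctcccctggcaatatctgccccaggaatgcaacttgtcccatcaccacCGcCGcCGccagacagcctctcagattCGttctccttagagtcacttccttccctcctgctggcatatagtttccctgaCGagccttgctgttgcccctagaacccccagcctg

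**Figure D2:**
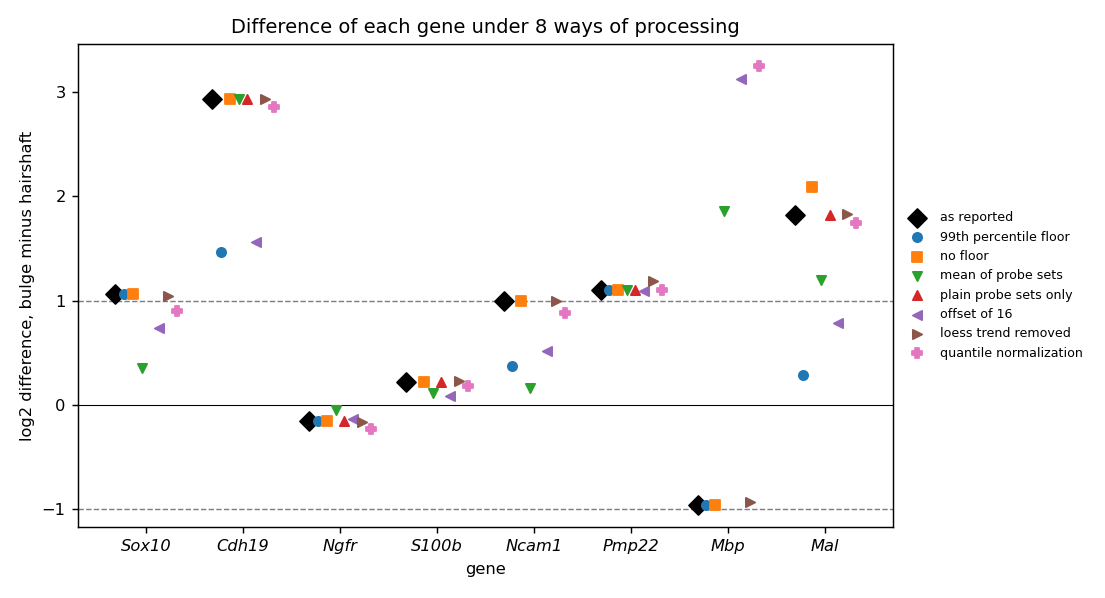
Log2 difference, bulge minus hairshaft (vertical axis), of each of the 8 genes as reported (black diamonds) and with 7 alternatives; dashed lines mark 2-fold, and a gene without a value above the floor under a setting has no point. Cdh19 and Pmp22 stay above the 2-fold line throughout, Ngfr and S100b stay near 0, and Mbp lies between -0.96 and 3.25.

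Other genes of the myelin and Schwann cell programme were partly higher in the bulge. Of 24 listed genes, 20 were measured and 14 were above the floor. Of those, 5 were bulge-high, 9 were even and none was hairshaft-high, where 11.4% of all genes above the floor were bulge-high and 4.91% hairshaft-high. The list had a median difference of 0.62 against 0.00 over all genes. Fa2h, which hydroxylates the fatty acids of myelin lipids and is also active in sebaceous glands, had 12.76 in bulge RNA and 6.39 in hairshaft RNA, an 82.4-fold difference. Ncmap, a protein of non-compact myelin, had 5.01 in bulge RNA and 2.97 in hairshaft RNA. Scn7a, a sodium channel of non-myelinating Schwann cells, had 6.12 in bulge RNA and 4.58 in hairshaft RNA. Its probe set 1427495_at was 3.04-fold higher in the bulge, and 1436043_at was even, at 1.60-fold. Cnp, a phosphodiesterase of myelinating glia, was 2.18-fold higher in the bulge. Its probe set 1418980_a_at was 2.05-fold higher and 1449296_a_at was even, at 1.16-fold. Cadm4, a Schwann cell adhesion protein that binds axons, was 2.003-fold higher in the bulge and was named to complete the count.

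The signalling and transcription factor genes of this list included members in the opposite direction. Pou3f1, a transcription factor of promyelinating Schwann cells that epidermis also expresses, had 9.44 in bulge RNA and 10.39 in hairshaft RNA, and its probe set 1422068_at was 3.20-fold higher in the hairshaft. With the mean of its probe sets Pou3f1 was hairshaft-high. Erbb3, the neuregulin receptor, had 11.02 in bulge RNA and 11.43 in hairshaft RNA, and Egr2, the master regulator of myelination, had 10.77 in bulge RNA and 10.12 in hairshaft RNA. Mag, Pmp2 and Dhh, which serve as markers of myelinating or developing Schwann cells, had the same value on both arrays, between 2.93 and 2.98. These identical pairs are among the even genes of the list.

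Many markers of axons and sensory neurons were at background on both arrays. The cell bodies of skin sensory neurons, which hold most of their mRNA, lie in ganglia outside the skin. Of 22 measured axon and sensory neuron genes, 12 were above the floor on neither array. Of the other 10, 1 was bulge-high, 9 were even and none was hairshaft-high, close to the 11.4% and 4.91% of all genes above the floor. The even genes include identical pairs just above the floor: Gap43, Tac1 and Pou4f1 had 3.02, 2.97 and 2.83 on both arrays. The neurofilament gene Nefl and the neuronal ubiquitin hydrolase Uchl1 had 2.23 on both arrays, the lowest value of the scale. The bulge-high gene was Isl1, a homeobox factor of sensory neurons and other lineages, at 5.03 in bulge RNA and 2.65 in hairshaft RNA, at least 5.10-fold higher. A second probe set of Isl1 had 3.01 on both arrays. Map2, a microtubule protein best known from dendrites, was far above background, with 9.69 in bulge RNA and 10.49 in hairshaft RNA. All 4 of its probe sets were lower in the bulge, and 1440699_at was 4.06-fold lower, so that Map2 was hairshaft-high with the mean of its probe sets. Stmn2, a microtubule regulator of growing axons, had 5.07 in bulge RNA and 4.38 in hairshaft RNA, and its probe set 1423280_at was 2.02-fold higher in the bulge.

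Neurotrophic ligands and receptors were close on both arrays. Of 12 genes above the floor, 1 was bulge-high, 1 was hairshaft-high and 10 were even, close to the 11.4% and 4.91% of all genes, and the list median was 0.12. Gfra1, the GDNF co-receptor, had 4.90 in bulge RNA and 2.25 in hairshaft RNA and was bulge-high by at least 4.68-fold, or at least 3.15-fold with probe set 1439015_at. Its probe set 1421973_at had 2.23 on both arrays, below the floor. Nrtn, the ligand neurturin, had 7.99 in bulge RNA and 9.02 in hairshaft RNA, 2.03-fold higher in the hairshaft. Ntrk2, the receptor of brain-derived neurotrophic factor, had 7.10 in bulge RNA and 6.44 in hairshaft RNA, and its probe set 1435196_at was 2.51-fold higher in the bulge. The remaining Ntrk2 probe sets were above the floor on neither array.

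Melanocytes share Sox10 with Schwann cells, and several of their genes were higher in the bulge too. Of 13 measured melanocyte genes, 7 were above the floor, 5 were bulge-high (11.4% of all genes) and none was hairshaft-high (4.91%). Mitf, the melanocyte master regulator, had 8.40 in bulge RNA and 6.45 in hairshaft RNA. Dct, a pigment enzyme, had 7.0 in bulge RNA and 2.38 in hairshaft RNA, at least 20.0-fold higher. Ednrb, the endothelin receptor, was at least 13.5-fold and the pigment fibril protein Pmel 5.81-fold higher, and Tyrp1, the fifth, at least 4.51-fold. Dct, Ednrb and Tyrp1 passed the floor through their bulge values alone. Further probe sets differed less: Ednrb 1426314_at was 1.15-fold, Tyrp1 1415862_at 1.94-fold and Tyrp1 1439409_x_at at least 1.39-fold higher in the bulge. Ednrb 1423594_a_at was above the floor on neither array. Mitf 1422025_at had 2.76 in bulge RNA and 3.01 in hairshaft RNA. The summed linear level of the 13 genes was 679 in bulge RNA and 158 in hairshaft RNA, with Mlana, Tyr and Oca2 not above the floor on either array. The part of melanocytes in the Sox10 value was not tested.

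**Figure D3:**
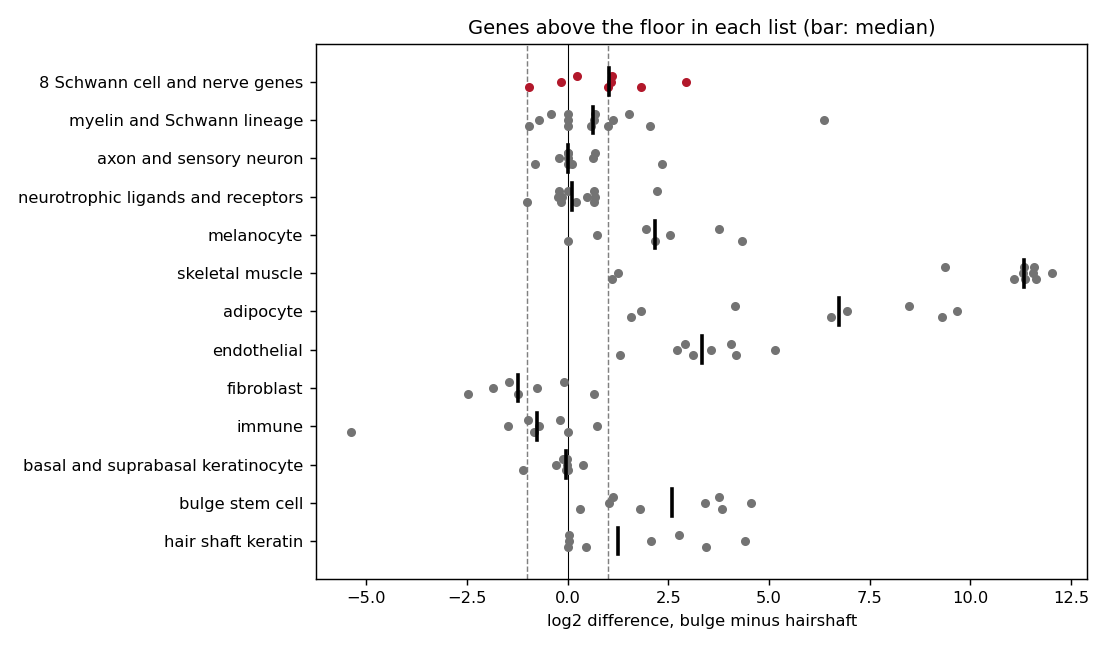
Log2 difference, bulge minus hairshaft (horizontal axis), of the 8 genes (red) and of the genes above the floor in 12 lists (grey), 1 point per gene, with the list median as a black bar and dashed lines at 2-fold. The 8 genes, with a median of 1.03, lie below the median of the muscle list, 11.33, and that of the fat cell list, 6.73.

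Genes of some other tissues differed by more between the same arrays. The median difference was 11.33 for skeletal muscle, 6.73 for fat cells and 3.34 for endothelium (members from 1.31 to 5.15), whereas Cdh19, with the largest difference of the 8 genes, differed by 2.94, and the most bulge-high Mbp probe set by 3.76. The medians of keratinocyte, immune and fibroblast genes were -0.03, -0.77 and -1.24. Summed linear levels were 169627 in bulge RNA and 79.2 in hairshaft RNA for 12 muscle genes, and 26586 in bulge RNA and 420 in hairshaft RNA for 8 fat cell genes. The part of these tissues in the nerve-lineage values was not tested.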

How the data were processed

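Total RNA of laser-dissected bulge and hairshaft was measured on Affymetrix whole-genome mouse expression arrays, 1 per structure. The authors deposited log2 values per probe set, made with GCRMA, per the submitters' processing notes; its version is not given in the sources used here, and the log2 scale is inferred from their range (2.23 to 15.36). No further scaling was applied, and 0 columns were left unused. Genes were named through a platform annotation (34958 probe sets with 1 symbol, 932 with several, 9211 unnamed here), with 34754 symbols updated by Entrez identifier to RefSeq names of GRCm38.p6. No genome build is stated for the arrays, so coordinates are given only for the RefSeq start windows.

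A gene with several probe sets was represented by the one whose 2 values had the highest mean. The floor was the 95th percentile of 80 olfactory and vomeronasal receptor probe sets (2.68 on both arrays); the dimmer value was raised to it, and features above it on at least 1 array were counted at a 2-fold limit. With 1 array per structure there are 0 residual degrees of freedom, so no p-value is given; an array has no sequencing depth, and precision is limited by the number of arrays. The counting was checked on simulated data.

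The 8 genes and the 12 lists were chosen with earlier results of these data known. Named were the 8 genes, 6 further genes of which 4 were measured, and up to 4 genes with the largest differences past 2-fold in each list, fewer for lists of other tissues; other list genes, and probe sets of named genes, were added after their values were seen. The 7 alternatives were a stricter floor (99th percentile), values without a floor, averaging all probe sets of a gene, keeping only plain probe sets (no _a, _s or _x suffix), adding an offset of 16 before the log, subtracting a loess trend (span 0.3) and quantile normalization. Computation used Python 3.11.15 with numpy 2.4.6, pandas 2.3.3, matplotlib 3.10.9 and statsmodels 0.14.6.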

Additional observations from a re-analysis of the deposited data

How the results depend on the processing

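The count of bulge-high genes was 3 or 4 of 8 with all 7 alternatives and that of hairshaft-high genes was 0, but the genes counted differed. Cdh19 and Pmp22 were counted with all 7, whereas Mbp replaced Sox10 with the mean of probe sets and quantile normalization, and replaced Sox10 and Mal with the offset of 16. With only plain probe sets Sox10, Ncam1 and Mbp had no value, and the counts of bulge-high and hairshaft-high probe sets of the 8 genes became 3 and 0, because every Mbp and Sox10 probe set carries a suffix. The median difference of the 8 genes was 0.37 with the 99th percentile floor, under which S100b had no value, and 0.73 to 1.11 with the other 6. Of 52 alternative values of single genes, 11 moved by over 1.5-fold: Sox10 with the mean of probe sets (0.35), Cdh19 with the stricter floor (1.46) and the offset (1.56), Ncam1 with the stricter floor (0.37) and the mean (0.16), Mal with the stricter floor (0.29), the mean (1.19) and the offset (0.79), and Mbp with the mean (1.86), the offset (3.12) and quantile normalization (3.25). Of 168 alternative counts for the lists, 11 moved by over 1.5 times, among them the bulge-high myelin and Schwann cell genes, which numbered 3 with the stricter floor and with plain probe sets in place of 5. Isl1 and Gfra1 were under 2-fold with the stricter floor, and Nrtn with the offset and the loess trend removed. No paired analysis was possible because there was 1 array per structure, and leaving out a replicate was not possible for the same reason. Signals near the floor on at least 1 array limit Cdh19, Mal, S100b and Ncam1.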
